A study of Mus musculus with 54 samples.

Results

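The Notch pathway genes described here are 10 genes taken by symbol from the deposited tables of coding genes, which list 25149 genes: the ligand Jag1, the receptors Notch1, Notch2 and Notch3, the Mastermind family genes Maml2 and Mamld1, and the target genes Hes1, Hey1, Hey2 and Heyl. All 10 were found, and each had a count in 46 to 54 of the 54 libraries. The libraries are Smart-Seq2 profiles, made with a protocol for very small amounts of RNA, of dissected sides of CD-1 mouse follicles. The follicles came from mice aged 14 to 16 days and were kept to day 8 of culture inside beads of alginate, a soft gel in which they stay round. For the last 12 h every group was in maturation medium, which held recombinant FSH at 10 mIU/ml, EGF at 10 ng/ml and serum at 10%. The post-hCG groups also received hCG, which acts on the receptor for luteinizing hormone, at 1.5 IU/ml, and comprised 12 libraries of the unruptured side and 13 of the ruptured side. The groups without hCG comprised 15 libraries of the putative unruptured side and 14 of the putative ruptured side. Without hCG the sides were assigned from antral swelling and image analysis, so "putative" is a prediction and not an observed break. By the study's methods, isolation with enzymes strips much of the theca layer, which grows back during culture.

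Notch signaling acts between touching cells. A ligand such as JAG1 on the surface of a cell binds a NOTCH receptor on its neighbor, the receptor is cut by an ADAM protease and then by the gamma-secretase complex, and the freed intracellular part enters the nucleus. There it joins the DNA-binding protein RBPJ and a Mastermind coactivator and switches on genes of the Hes and Hey families, which encode repressors of transcription. In the ovary the pathway is best known for contact between oocytes and granulosa cells while follicles form and begin to grow.

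Library totals ran from 1497071 to 2834734 counts, and levels are given in TPM, the deposited unit that corrects for transcript length and library size. The labels call the tissue cumulus-oocyte complex, while the study's methods state that the complexes were removed. The granulosa markers were uneven. Inha and Gja1, the highest of the 8, had medians of 1051 to 9027 TPM and 134 to 3603 TPM over the 4 groups. Nr5a2 had medians of 11.4 to 58.4 TPM, Fshr of at most 3.21 TPM and Foxl2 of at most 1.66 TPM. Amh had a median of 0 in each group. Cyp19a1 had medians of 2.75 and 40.5 TPM without hCG and of 0 on both sides post-hCG. Hsd17b1 had medians of 3.72 and 91.5 TPM without hCG and of at most 1.27 TPM post-hCG. The summed levels of this list given below therefore rest mostly on Inha and Gja1. The summed level of 8 oocyte markers had a median of at most 0.200 TPM in every group but exceeded 5 TPM in 5 libraries, up to 133 TPM in replicate 1 of the putative unruptured side. Each count of members called below was repeated without those 5 libraries, and it changed for the interaction alone, from 2 to 1. Over the 4 groups the summed markers of endothelium (10 genes) had medians of 4.95 to 19.9 TPM, of immune cells (6 genes) 0.860 to 2.72 TPM, of surface epithelium (7 genes) 3.17 and 5.02 TPM post-hCG and more without hCG, and of cumulus cells (3 genes) 4.18 to 16.4 TPM. In such bulk samples fewer cells of a type and less RNA per cell cannot be told apart. The column names end in a letter and a number that read as plate positions, although no label says so. Read this way, the post-hCG libraries lie in other rows than those without hCG. Within each medium the sides fill separate runs of positions. Position can therefore be told apart neither from hCG nor from side. The labels do not say which libraries came from the same follicle or animal, so the p-values measure only the spread between libraries.

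Measured per transcript length, Notch2 had the highest level of the 10 genes, with a mean of 12.8 TPM over all 54 libraries. Mamld1 (8.63 TPM), Hes1 (5.22 TPM) and Hey2 (4.42 TPM) followed, and then Heyl (2.34 TPM) and Notch1 (1.48 TPM). The means of Maml2 (0.974 TPM), Hey1 (0.681 TPM), Jag1 (0.559 TPM) and Notch3 (0.289 TPM) were under 1 TPM. For the low genes a TPM value rests on few counts: the median library had 1 to 11 counts of Hey1, 3 to 16.5 of Jag1 and 4 to 11.5 of Notch3, depending on the group. Genes this low fell under edgeR's expression filter in some comparisons and then entered no test there.

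**Figure D1:**
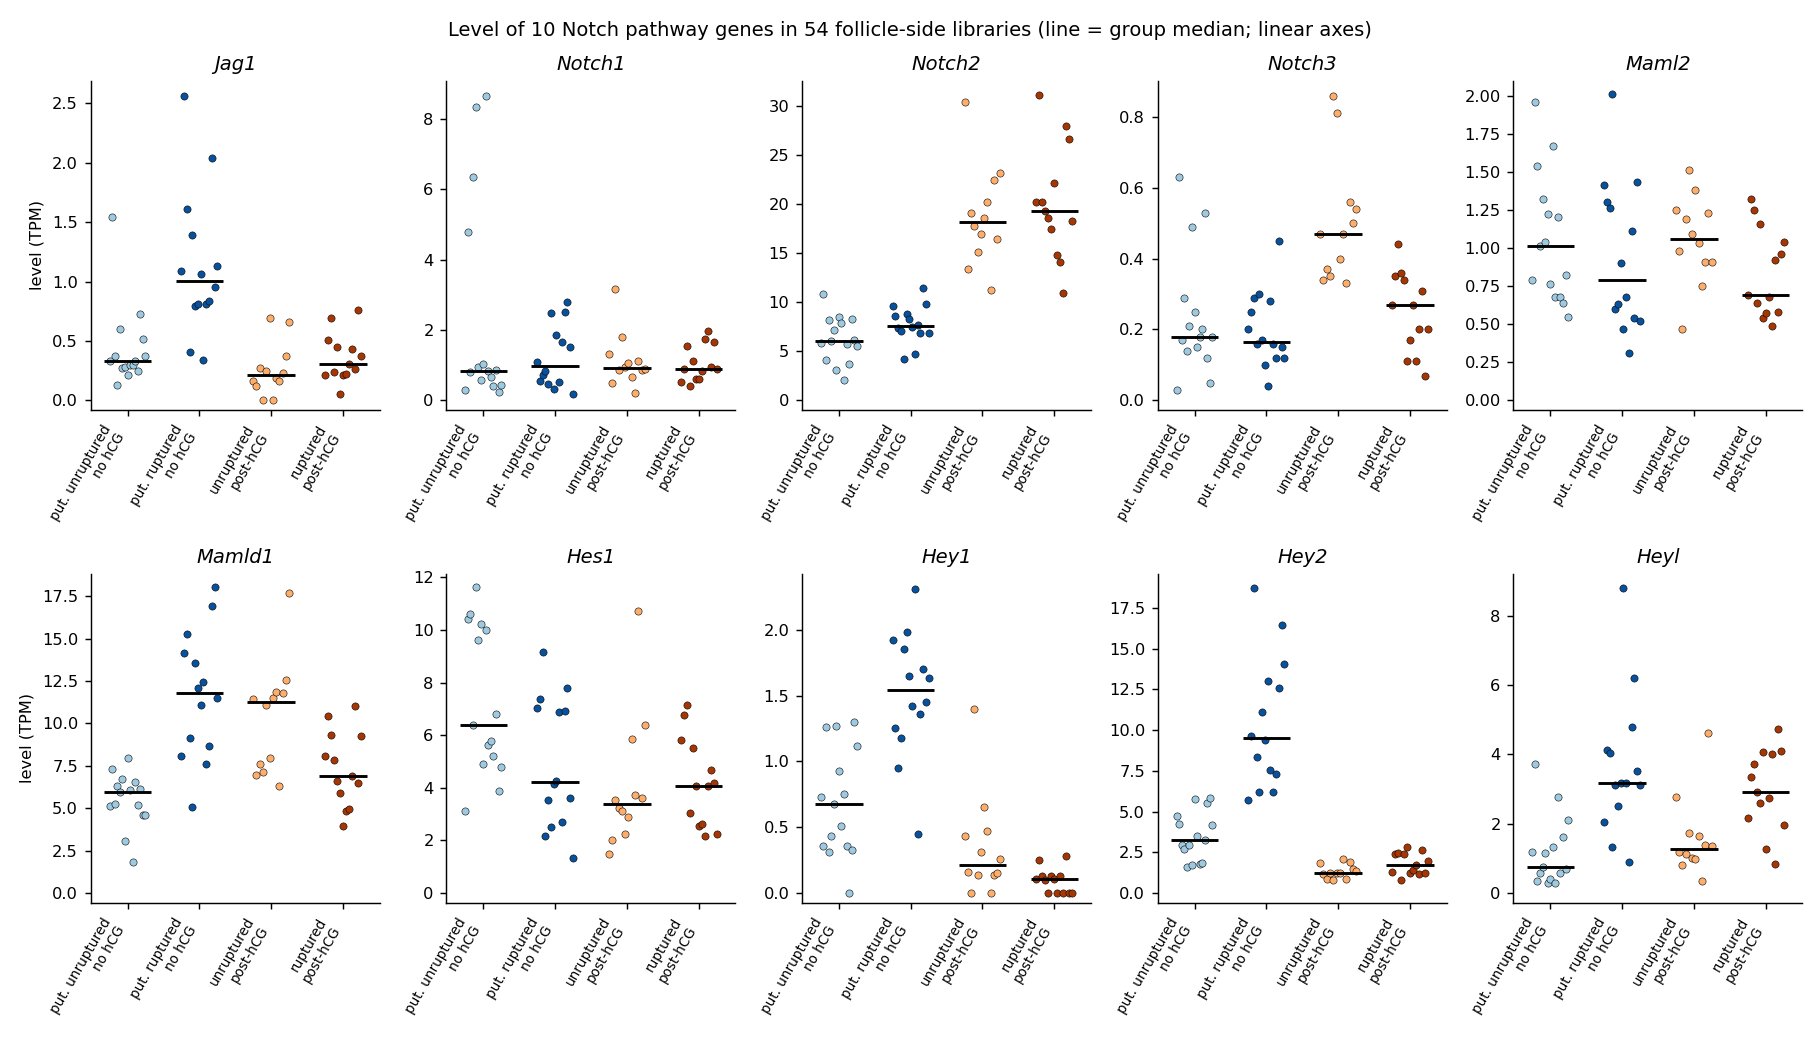
Level in TPM of each of the 10 genes, on linear axes that differ between panels, in each library (points) of the 4 groups, with the group median as a line. Notch2 lies higher in both post-hCG groups, with medians of 18.2 and 19.3 TPM against 6.01 and 7.58 TPM, and Hey2 is highest on the putative ruptured side without hCG, with a median of 9.51 TPM.

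Jag1, the only ligand among the 10 genes, lies at chr2:137081456-137116644 on the minus strand of GRCm38. It was highest on the putative ruptured side without hCG. There its level ran from 0.34 to 2.56 TPM with a median of 1.00 TPM, against 0.13 to 1.54 TPM with a median of 0.33 TPM on the putative unruptured side. All 14 libraries of the putative ruptured side were above the median of the other side, although the ranges overlapped. In edgeR's quasi-likelihood test the log2 fold change (log2FC) was 1.39 ± 0.25 (SE) with a Benjamini-Hochberg adjusted p (FDR) of 0.000162. The median library held 16.5 counts on the putative ruptured side and 8 on the other. The filter's count of 10 was thus reached by the median only in the group where Jag1 was higher. Post-hCG the level ran from 0 to 0.69 TPM with a median of 0.21 TPM on the unruptured side, and from 0.05 to 0.76 TPM with a median of 0.31 TPM on the ruptured side. The 12 unruptured post-hCG libraries held 37 counts of Jag1 in all and the 13 ruptured ones 81, which was too few for the filter in the comparison of the sides post-hCG and in both comparisons of the media. Fitted without the filter, the log2FC between the sides post-hCG was 1.07 ± 0.38 (FDR = 0.0672). Jag1 was in that fit lower post-hCG on both sides, with a log2FC of -1.09 ± 0.34 on the unruptured side (FDR = 0.0129) and of -1.39 ± 0.29 on the ruptured side (FDR = 0.000150).

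Notch2 (chr3:98013527-98150361, plus strand) encodes the receptor with the highest level in these libraries, and it was higher post-hCG on both sides. Without hCG its level ran from 2.05 to 10.8 TPM with a median of 6.01 TPM on the putative unruptured side, whereas the putative ruptured side ran from 4.19 to 11.5 TPM with a median of 7.58 TPM. Post-hCG it ran from 11.2 to 30.4 TPM with a median of 18.2 TPM on the unruptured side and from 10.9 to 31.1 TPM with a median of 19.3 TPM on the ruptured side. On the unruptured side every post-hCG library was above every library without hCG, which was true in 1 direction or the other of 5.27% of the genes tested there. On the ruptured side the ranges overlapped only in that the lowest post-hCG library, at 10.9 TPM, was under the highest without hCG, at 11.5 TPM. The log2FC of hCG was 1.58 ± 0.11 on the unruptured side (FDR = 6.81e-14) and 1.61 ± 0.10 on the ruptured side (FDR = 8.10e-15), which are 2.99-fold and 3.05-fold. These differences could not be told apart between the sides, since the interaction was 0.03 ± 0.15 on the log2 scale (FDR = 0.943). The differences between sides were smaller, at a log2FC of 0.44 ± 0.11 without hCG (FDR = 0.00468) and 0.46 ± 0.09 post-hCG (FDR = 0.000509), both higher on the ruptured side. Neither passed with limma on log2(TPM + 1), where they were 0.33 (FDR = 0.215) and 0.09 (FDR = 0.694). Of the exon bases of Notch2, 541 of 10782 are shared with Gm42820 on the same strand.

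Notch1 (chr2:26457903-26516663, minus strand) had nearly the same median in all groups. The level ran from 0.23 to 8.65 TPM with a median of 0.83 TPM on the putative unruptured side, whereas the putative ruptured side ran from 0.17 to 2.79 TPM with a median of 0.96 TPM. Post-hCG it ran from 0.22 to 3.15 TPM with a median of 0.92 TPM and from 0.42 to 1.97 TPM with a median of 0.90 TPM on the unruptured and ruptured sides. The groups overlapped nearly whole, and 4 libraries of the putative unruptured side stood above all others. The counts of the same libraries gave another picture. edgeR put Notch1 higher post-hCG on the ruptured side (log2FC = 0.75 ± 0.19, FDR = 0.000913), and the 3 other contrasts did not pass, at -0.48 ± 0.22 between the sides without hCG (FDR = 0.135), 0.22 ± 0.20 between the sides post-hCG (FDR = 0.480) and 0.05 ± 0.23 for hCG on the unruptured side (FDR = 0.879). With limma on log2(TPM + 1), the difference on the ruptured side was -0.06 (FDR = 0.800).

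The values of Notch1 in the 2 tables diverged from each other more than those of any other of the 10 genes. The number of counts per 1000000 in a library, divided by TPM, would vary between libraries only by a factor common to all genes if each gene had the same transcript length in every library. For Notch1 this ratio ran from 1.43 to 19.7 over the libraries, whereas for Hey2 it ran from 3.23 to 4.84 and for Notch2 from 9.13 to 19.5. The ratio of its 90th to its 10th percentile was 6.01 for Notch1 and between 1.30 and 2.55 for the other 9 genes. Of the exon bases of Notch1, 1389 of 14232 are shared with 0610009E02Rik and Gm13568 on the opposite strand, whose reads cannot be told apart without strand. The part of either in the divergence was not tested.

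**Figure D2:**
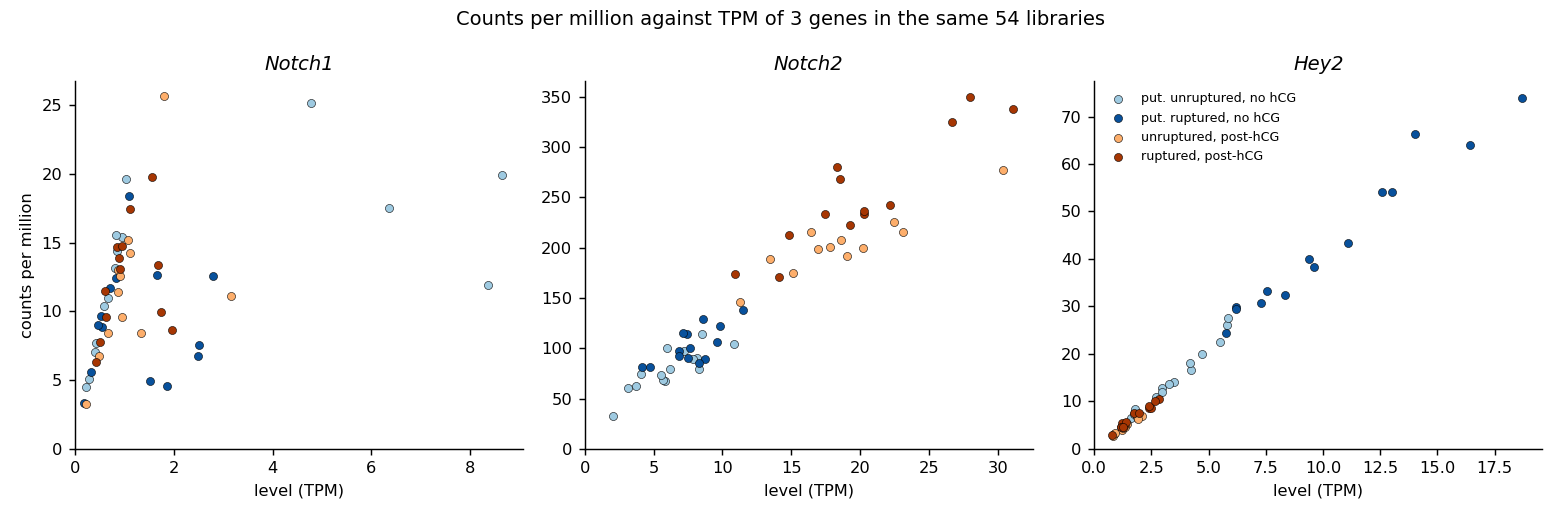
Counts scaled to a library total of 1000000 against TPM for Notch1, Notch2 and Hey2, with 1 point per library colored by group. Points of Hey2 lie close to a line, while those of Notch1 split into a steep series and libraries with up to 8.65 TPM at a similar number of counts.

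Notch3 (chr17:32120820-32166852, minus strand), known for its role in smooth muscle and pericytes, was the lowest of the receptors among the 10 genes, and 488 of its 8089 exon bases are shared with Gm17276 on the opposite strand. It was highest on the unruptured side post-hCG, from 0.33 to 0.86 TPM with a median of 0.47 TPM. On the putative unruptured side it ran from 0.03 to 0.63 TPM with a median of 0.18 TPM. All 12 post-hCG libraries of the unruptured side were above that median, and the log2FC was 0.98 ± 0.28 (FDR = 0.00326). On the putative ruptured side Notch3 ran from 0.04 to 0.45 TPM with a median of 0.16 TPM, and on the ruptured side post-hCG from 0.07 to 0.44 TPM with a median of 0.27 TPM. All 13 libraries of the ruptured side post-hCG were under the median of the unruptured side, but the gene was under the filter in that comparison, and without the filter the log2FC was -0.72 ± 0.22 (FDR = 0.0273). The summed level of the 10 smooth muscle and pericyte markers had medians of 40.3 TPM on the putative unruptured side and 6.66 TPM on the putative ruptured side. Post-hCG it had medians of 7.72 TPM on the unruptured side and 1.70 TPM on the ruptured side. In the same order of groups, Acta2 had medians of 29.1, 3.53, 2.90 and 0.870 TPM and Pdgfrb of 2.96, 0.845, 1.75 and 0.160 TPM. Abcc9, Tagln, Des and Cspg4 also had lower medians on the unruptured side post-hCG than on the putative unruptured side. Kcnj8 alone of the 10 had a higher one, with medians of 0.890, 0.290, 0.935 and 0 TPM. For hCG on the unruptured side 3 of these markers were tested, with 0 called higher and 3 lower. Myh11 and Cnn1 had a median of 0 in every group. The part of these markers in the level of Notch3 was not tested.

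Of the summed TPM of the receptor genes Notch1, Notch2, Notch3 and Notch4, Notch2 made up the larger part in most libraries. Its share had a median of 74.3% (range 40.6 to 95.7%) on the putative unruptured side and of 85.5% (69.9 to 95.9%) on the putative ruptured side. Post-hCG the median was 91.7% (76.1 to 94.7%) on the unruptured side and 94.2% (83.4 to 96.4%) on the ruptured side. The sum itself had medians of 8.30, 9.47, 20.1 and 20.2 TPM in the same order of groups. These shares are descriptions of TPM values and carry the divergence of Notch1, since on summed counts the median share of Notch2 was 81.9% on the putative unruptured side.

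The Mastermind family genes differed from each other. Maml2 (chr9:13297957-13709388, plus strand), a coactivator of the NOTCH and RBPJ complex, had medians of 1.01, 0.79, 1.06 and 0.69 TPM on the putative unruptured, putative ruptured, unruptured and ruptured sides. Its lowest library was at 0.31 TPM and its highest at 2.01 TPM, and all groups overlapped. It passed the test in none of the 5 comparisons, nor with DESeq2, nor with limma in the 2 comparisons in which it was fitted, with FDRs of 0.481 to 0.941 in edgeR and unadjusted p-values of 0.259 to 0.876.

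Mamld1 (chrX:71050256-71156056, plus strand) encodes a Mastermind-like protein that is linked to steroid hormone production in the fetal testis. Its side difference was the member value that depended most clearly on the medium. Without hCG its level ran from 1.82 to 7.99 TPM with a median of 5.93 TPM on the putative unruptured side, whereas it ran from 5.09 to 18.02 TPM with a median of 11.8 TPM on the putative ruptured side. Post-hCG the order turned around in TPM, with 6.29 to 17.7 TPM and a median of 11.3 TPM on the unruptured side and 3.95 to 11.01 TPM and a median of 6.91 TPM on the ruptured side. Of the 14 libraries of the putative ruptured side, 13 were above the median of the other side, and all 13 of the ruptured side post-hCG were below the median of the unruptured side. The log2FC between the sides was 1.13 ± 0.15 without hCG (FDR = 3.08e-06). Post-hCG it was -0.21 ± 0.12 (FDR = 0.236), and with limma on log2(TPM + 1) it was -0.44 (FDR = 0.0446), in a fit where the median over all genes was -0.21. The interaction, which tests whether the side differences differ, was -1.33 ± 0.20 (FDR = 1.25e-05). Compared by medium, Mamld1 was higher post-hCG on the unruptured side (log2FC = 0.84 ± 0.14, FDR = 4.54e-06) and lower on the ruptured side (log2FC = -0.49 ± 0.14, FDR = 0.00340).

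The promoter of Hey2 is shown because Hey2 had the clearest pattern of the target genes and its promoter window held more matches to the RBPJ core motif than that of any of the other members searched. The letters searched were GTGGGAA and, for the opposite strand, TTCCCAC, in windows from 250 bases before to 50 bases after each RefSeq transcript start (GRCm38). At least 1 match was present in 6.38% of 32851 windows and at least 2 in 0.256%. Of the 10 genes, 7 had such a window, 8 windows in all, and those of Hey2 (2 matches) and Mamld1 (1 match) held the letters. Hes1, Hey1 and Heyl had no window, so Hey2 was the only target gene searched. The 232 bases of Hey2 below stop where the gene starts in GENCODE and hold 1 match. The other match, shown apart, begins 4 bases before the RefSeq start and lies inside the GENCODE bounds of the gene. In the sequences, written 5′ to 3′ along the gene's strand, capitals mark the match:
Hey2, chr10:30842802-30843033, minus strand, 232 bases: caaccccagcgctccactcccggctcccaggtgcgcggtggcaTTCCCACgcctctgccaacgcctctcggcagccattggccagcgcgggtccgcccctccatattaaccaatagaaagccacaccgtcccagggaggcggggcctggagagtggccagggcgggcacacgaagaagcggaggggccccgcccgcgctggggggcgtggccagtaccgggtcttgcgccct
Hey2, chr10:30842771-30842797, minus strand, 27 bases: gggctgcagcGTGGGAAagaacctcca
Mamld1, chrX:71050111-71050137, plus strand, 27 bases: gagccgggcgGTGGGAAtggagcgagc
A match says only that these letters are there, and binding of RBPJ was not measured in these data.

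Hey2 (chr10:30832359-30842801, minus strand) encodes a repressor of the Hey family. It was highest on the putative ruptured side and low on both sides post-hCG. Its level ran from 1.6 to 5.84 TPM with a median of 3.25 TPM on the putative unruptured side, whereas it ran from 5.74 to 18.7 TPM with a median of 9.51 TPM on the putative ruptured side. There the lowest library of the putative ruptured side, at 5.74 TPM, was just under the highest libraries of the other side, at 5.80 and 5.84 TPM, and the rest lay apart. Post-hCG the level ran from 0.80 to 2.08 TPM with a median of 1.24 TPM on the unruptured side, and from 0.78 to 2.81 TPM with a median of 1.74 TPM on the ruptured side. On the ruptured side no post-hCG library reached the lowest library without hCG, a separation shared by 7.77% of the genes tested in that comparison. The log2FC of hCG was -2.37 ± 0.20 on the ruptured side (FDR = 3.62e-12, 5.16-fold lower) and -1.45 ± 0.22 on the unruptured side (FDR = 1.68e-06, 2.73-fold lower). Between the sides it was 1.63 ± 0.20 without hCG (FDR = 1.80e-06) and 0.70 ± 0.19 post-hCG (FDR = 0.00676), and the latter was lost with limma on log2(TPM + 1), at 0.24 (FDR = 0.198). The interaction of -0.93 ± 0.31 had an FDR of 0.0485, and without replicate 3 of the putative ruptured side, the library with the highest count of Hey2, it was -0.87 with an FDR of 0.0659. It was also lost without the 5 libraries with oocyte markers (-0.86, FDR = 0.0978), with no filter (FDR = 0.0836) and with thinned counts (-0.62, FDR = 0.311).

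Heyl (chr4:123233556-123249875, plus strand), another Hey family repressor, was called between the sides in both media and between the media on neither side. Its level ran from 0.28 to 3.71 TPM with a median of 0.74 TPM on the putative unruptured side, whereas the putative ruptured side ran from 0.90 to 8.79 TPM with a median of 3.17 TPM. Post-hCG it ran from 0.34 to 4.63 TPM with a median of 1.27 TPM and from 0.85 to 4.74 TPM with a median of 2.93 TPM. All 14 libraries of the putative ruptured side and 11 of 13 of the ruptured side post-hCG were above the median of the opposite side, with overlapping ranges. The log2FC between the sides was 1.74 ± 0.29 without hCG (FDR = 8.27e-05) and 1.35 ± 0.21 post-hCG (FDR = 1.89e-05). The differences with hCG did not pass, at 0.26 ± 0.29 on the unruptured side (FDR = 0.470) and -0.12 ± 0.23 on the ruptured side (FDR = 0.689), and neither did the interaction (-0.38 ± 0.39, FDR = 0.616).

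Hes1 (chr16:30064384-30067796, plus strand), a repressor that many cell types switch on upon Notch activation, went another way. It was highest on the putative unruptured side, from 3.1 to 11.6 TPM with a median of 6.39 TPM. The other groups had medians of 4.21 TPM (1.35 to 9.15) on the putative ruptured side, 3.40 TPM (1.5 to 10.7) on the unruptured side post-hCG and 4.05 TPM (2.16 to 7.13) on the ruptured side post-hCG. These 3 groups overlapped widely. Of its contrasts, that of hCG on the unruptured side passed (log2FC = -0.88 ± 0.24, FDR = 0.00275), and 11 of 12 post-hCG libraries were below the median without hCG. The others were -0.48 ± 0.21 between the sides without hCG (FDR = 0.126), 0.32 ± 0.24 between the sides post-hCG (FDR = 0.364) and -0.07 ± 0.21 for hCG on the ruptured side (FDR = 0.788).

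Hey1 (chr3:8663359-8667256, minus strand), the remaining Hey family repressor, was under the filter in every comparison. It was highest on the putative ruptured side, from 0.45 to 2.31 TPM with a median of 1.54 TPM and with a count in all 14 libraries. On the putative unruptured side it ran from 0 to 1.30 TPM with a median of 0.68 TPM. Post-hCG it had medians of 0.21 TPM (0 to 1.40) on the unruptured side and 0.11 TPM (0 to 0.28) on the ruptured side, where 5 of 13 libraries listed it at 0. The highest ruptured library post-hCG was below the lowest without hCG. Such a separation was shared by 7.77% of the genes tested in that comparison, of which Hey1 was not one. It rests on 0 to 2 counts in each post-hCG library of that side. Summed over libraries the ruptured side held 135 counts of Hey1 without hCG and 10 post-hCG. Without the filter, its log2FC was 1.15 ± 0.30 between the sides without hCG (FDR = 0.0106), -1.43 ± 0.43 for hCG on the unruptured side (FDR = 0.00930) and -3.49 ± 0.38 for hCG on the ruptured side (FDR = 5.67e-10).

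The makeup of the Hes and Hey sum changed with these levels. Hes1 had a median share of 57.6% (31.9 to 80.8%) of the summed TPM of Hes1, Hey1, Hey2 and Heyl on the putative unruptured side and of 25.2% (6.70 to 42.0%) on the putative ruptured side. There Hey2 held the largest median share, 49.2% (34.2 to 69.7%), against 22.8% (11.1 to 49.9%) on the putative unruptured side. Post-hCG the median share of Hey2 was 17.8% on the unruptured and 20.5% on the ruptured side, and that of Heyl was 16.7% and 31.7%. On summed counts, which are not corrected for transcript length, the median share of Heyl post-hCG was 38.1% and 53.1%, and that of Hes1 on the putative ruptured side was 13.5%. The summed level had medians of 12.2 and 20.0 TPM on the putative unruptured and ruptured sides without hCG, and of 6.18 and 9.40 TPM in the corresponding groups post-hCG.

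**Figure D3:**
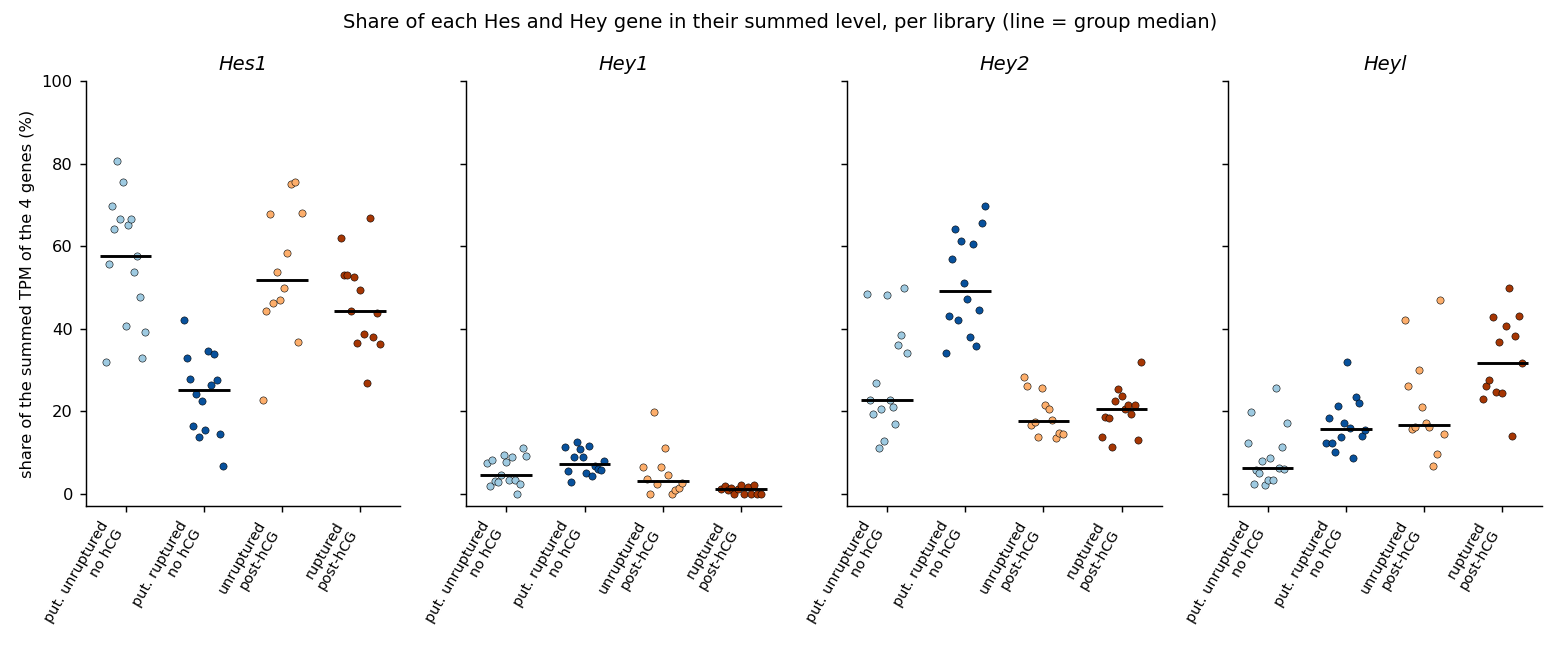
Share in percent of Hes1, Hey1, Hey2 and Heyl in their summed TPM, with 1 point per library and the group median as a line. The median share of Hey2 is 49.2% on the putative ruptured side without hCG and between 17.8% and 22.8% in the other groups, and that of Hes1 is lowest there at 25.2%.

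Without hCG, the putative ruptured side had higher levels of 5 of the 8 members tested (Jag1, Notch2, Mamld1, Hey2 and Heyl) and a lower level of none, while 8.84% of the 9063 genes tested were called higher and 8.96% lower. The median log2FC of the 8 was 0.78, beside -0.01 over all genes tested. The members had been chosen with earlier results of these data known. This count and those of the later comparisons are therefore no independent result about the members as a group. Of a wider list of 53 further pathway genes, 33 were tested, 5 were called higher and 0 lower, and the median log2FC was 0.05. At an unadjusted p under 0.05, 2 members (Notch1 and Hes1) and 2 genes of the wider list were lower, DESeq2 called 0 members and 2 genes of the wider list lower, and limma on log2(TPM + 1) called none of either lower. Limma also called 0 genes of the wider list higher. Of the 5 that edgeR called, those with the largest differences were Aph1b (log2FC = 0.45 ± 0.16, FDR = 0.0424) and Ncstn (0.40 ± 0.10, FDR = 0.00520), which encode parts of gamma-secretase, and Mib2 (0.37 ± 0.13, FDR = 0.0403), a ubiquitin ligase that acts on Notch ligands. Markers moved in the same comparison. Of 7 granulosa markers tested 6 were called higher and 0 lower, and all 8 listed summed to 5841 to 19244 TPM against 1549 to 7629 TPM. Of 8 theca and stroma markers tested 0 were called higher and 6 lower, and all 10 listed summed to 5.76 to 571 TPM against 34.9 to 2787 TPM. The 2 cumulus markers tested were called higher, and 2 of the 3 smooth muscle and pericyte markers tested were called lower. Their part in the differences of the Notch pathway genes was not tested.

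Post-hCG, the ruptured side had higher levels of 3 of the 7 members tested (Notch2, Hey2 and Heyl) and a lower level of none, while 21.4% of the 8585 genes tested were called in either direction, 862 of them higher, and 11.3% lower. The median log2FC was 0.32 over the 7 and 0.01 over all genes, with the same limit from the choice of members. With library totals alone as the scale, the median of all genes moved to -0.14, with 397 genes called higher and 1830 lower, and in limma on log2(TPM + 1) it moved to -0.21, with 214 genes called higher and 2166 lower. In that limma fit the calls of Notch2 and Hey2 were lost, Heyl alone of the members was called higher and Mamld1 was called lower. DESeq2 also called Jag1 higher (FDR = 0.0366) and Notch3 lower (FDR = 0.0159). Of the wider list, 33 were tested, 0 were called higher and 3 lower, with a median log2FC of 0.07, and 3 were higher at an unadjusted p under 0.05 and 0 in DESeq2 or limma. The 3 called lower were Dtx3 (-0.48 ± 0.17, FDR = 0.0391), a ubiquitin ligase of the Deltex family, Psen2 (-0.46 ± 0.11, FDR = 0.00353), a catalytic subunit of gamma-secretase, and Numb (-0.31 ± 0.11, FDR = 0.0421), an inhibitor of Notch. Of the 6 theca and stroma markers tested 0 were called higher and 5 lower. All 10 listed summed to 3.20 to 54.3 TPM on the ruptured side against 77.3 to 1336 TPM. The 8 granulosa markers summed to 861 to 1604 TPM and 981 to 2193 TPM, with 1 of the 4 tested called higher. The part of either list was not tested. The ranges of the TPM values of the sides overlapped for all 10 members in both media, while they were apart for 0.0331% of the genes tested without hCG and for 1.18% post-hCG.

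**Figure D4:**
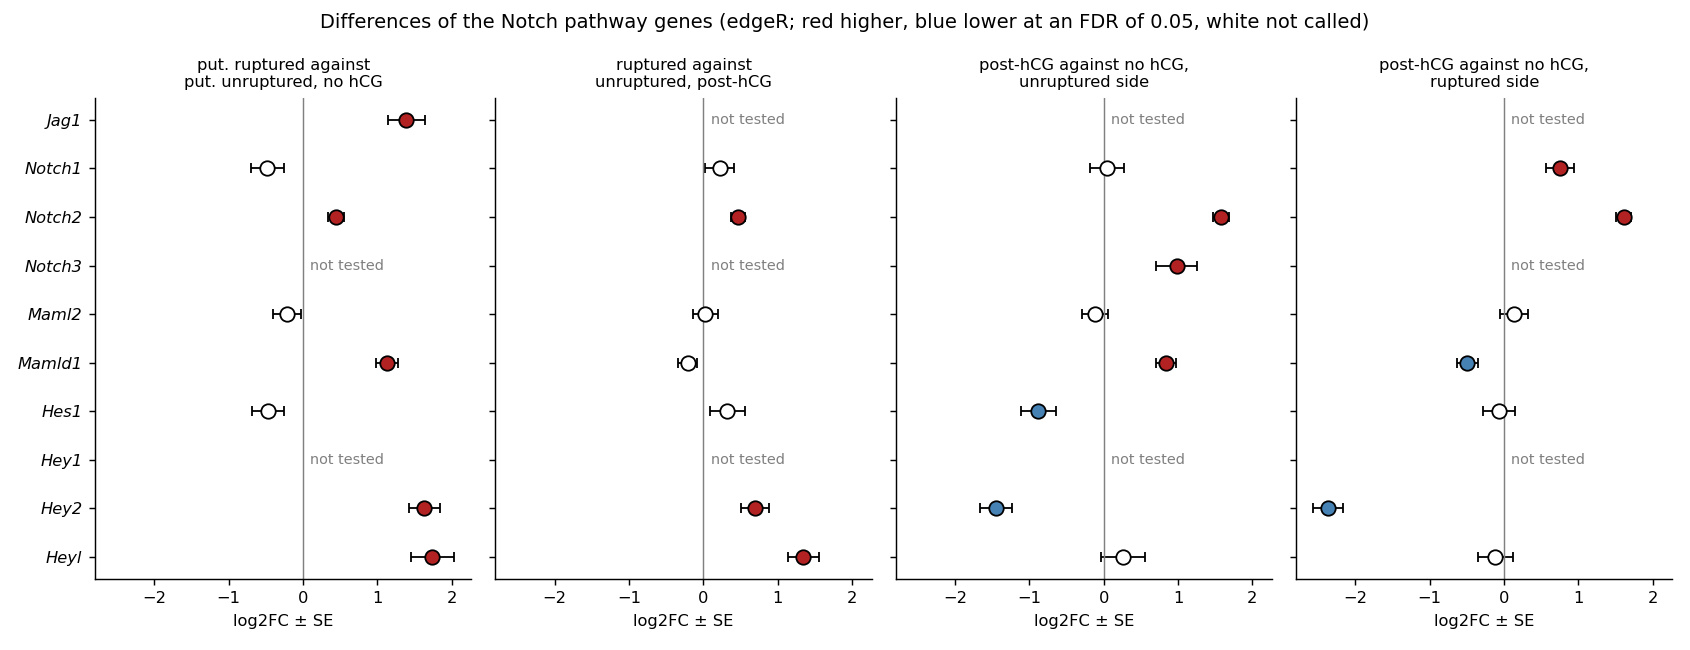
log2FC with its SE (bars) of each of the 10 genes in 4 comparisons, from edgeR, with red for higher, blue for lower and white for not called at an FDR of 0.05. Heyl, Hey2 and Notch2 are called higher on the ruptured side in both media, of which Notch2 in both and Hey2 post-hCG are not called with limma on TPM, and Notch2 is called higher and Hey2 lower post-hCG on both sides.

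On the unruptured side, hCG was followed by higher levels of 3 of the 8 members tested (Notch2, Notch3 and Mamld1) and lower levels of 2 (Hes1 and Hey2), while 25.4% of the 9320 genes tested were called higher and 27.7% lower. The median log2FC was 0.15 over the 8 and -0.03 over all genes, which became -0.25 with library totals alone, with 1455 genes called higher and 3844 lower against 2365 and 2582. Of the wider list 35 were tested, with 7 called higher, 7 lower and a median log2FC of 0.02. Neurl1a (2.96 ± 0.20, FDR = 9.05e-14), a ubiquitin ligase that acts on Notch ligands, Furin (2.14 ± 0.16, FDR = 4.39e-13), a convertase that cuts Notch receptors and many other precursors, and Rfng (1.24 ± 0.13, FDR = 2.42e-09), a glycosyltransferase of the Fringe family, rose most among the genes tested. Rbpj (-1.01 ± 0.12, FDR = 3.63e-08), the DNA-binding partner of NOTCH, Fbxw7 (-0.79 ± 0.16, FDR = 8.77e-05), which marks the intracellular part of NOTCH for breakdown, and Mib1 (-0.53 ± 0.19, FDR = 0.0177), a ubiquitin ligase of Notch ligands, fell most among the genes tested. Of 7 granulosa markers tested 2 were called higher and 5 lower and of 8 theca and stroma markers tested 0 and 5. Their part in these values was not tested.

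On the ruptured side, hCG was followed by higher levels of 2 of the 7 members tested (Notch1 and Notch2) and lower levels of 2 (Hey2 and Mamld1), while 29.7% of the 8531 genes tested were called higher and 30.4% lower. The median log2FC was -0.07 over the 7 and 0.00 over all genes, which became -0.33 with library totals alone, with 1376 genes called higher and 4242 lower against 2532 and 2597. On that scale Notch1 was not called (0.43, FDR = 0.0673). Of the wider list 32 were tested, with 9 called higher, 7 lower and a median log2FC of 0.00. Among the genes tested, the largest differences were again those of Neurl1a (3.63 ± 0.23, FDR = 5.06e-15), Furin (2.46 ± 0.15, FDR = 8.81e-16) and Rfng (1.53 ± 0.16, FDR = 4.21e-10). Those lowered most were Adam10 (-0.59 ± 0.10, FDR = 5.19e-06), which makes the first activating cut in bound NOTCH, Rbpj (-0.58 ± 0.14, FDR = 0.000754) and Numb (-0.56 ± 0.12, FDR = 0.000217). Some genes under the filter on both sides had larger differences than some of these in the fit without it. They included Dll3 (3.42 and 3.14), Dtx1 (2.81 and 3.03) and, in the lower direction, Dtx4 (-1.60 and -1.59), named after their values were seen. Of 7 granulosa markers tested 1 was called higher and 5 lower, and all 8 listed summed to 861 to 1604 TPM against 5841 to 19244 TPM. Of the 10 theca and stroma markers 4 were tested, with 0 called higher and 3 lower, while DESeq2 tested all 10 and called 8 lower. The part of either list was not tested. Beside these shares over all genes, the number of members called in the comparisons of the media is no result about the members as a group.

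**Figure D5:**
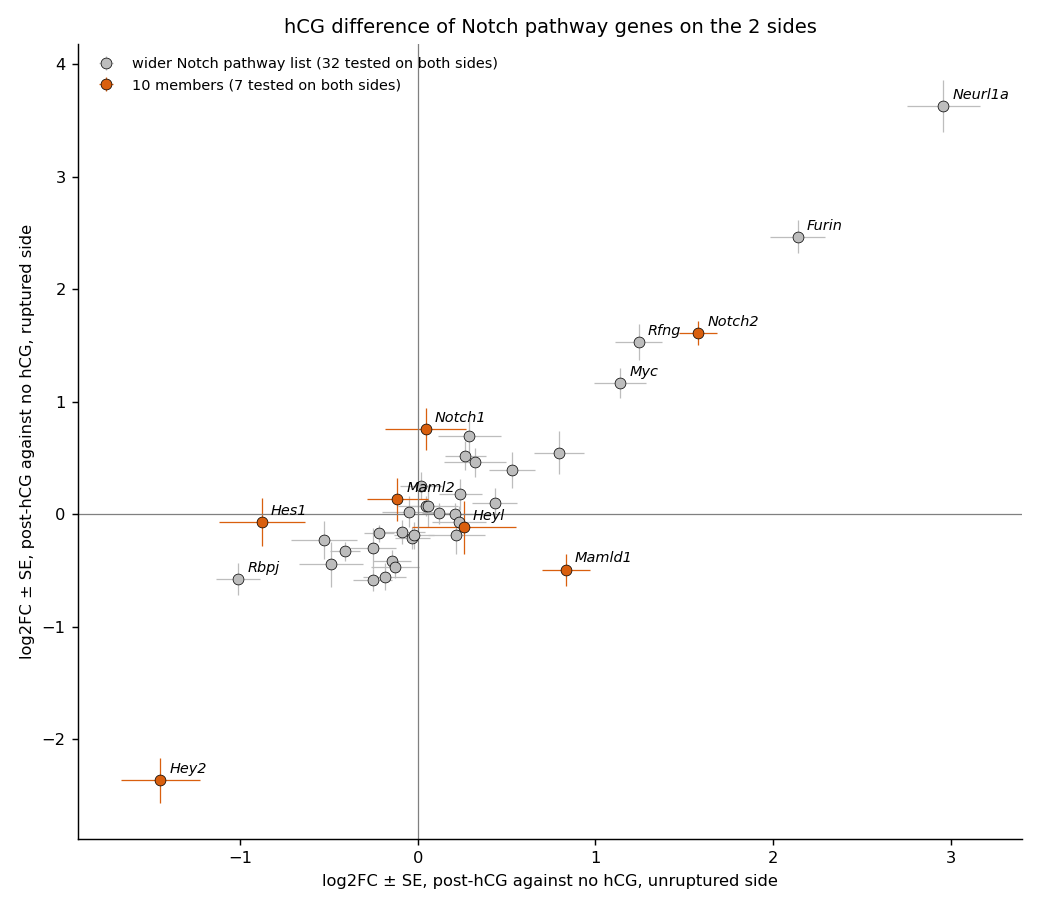
log2FC with SE of hCG on the unruptured side (horizontal axis) and on the ruptured side (vertical axis) for the 7 members and 32 genes of the wider list that were tested on both. The comparisons share no library, but the sides may come from the same follicles, which the labels do not give. Notch2 lies among the higher genes on both axes (1.58 and 1.61), Hey2 is the lowest (-1.45 and -2.37), and Mamld1 lies in the lower right part (0.84 and -0.49).

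The interaction of side and hCG, which asks whether the side difference changes with the medium, was called for 2 of the 9 members tested, Mamld1 and Hey2, both negative, while 4.25% of the 10013 genes tested were called positive and 4.65% negative. The call of Hey2 was lost under the 4 alternatives given with its levels, and DESeq2 called 3 members negative, with Hey1 as the third. The median interaction was -0.33 over the 9 and -0.01 over all genes, and with limma on log2(TPM + 1) that over all genes was -0.19. Notch1 (0.71 ± 0.30, FDR = 0.141), Hes1 (0.80 ± 0.33, FDR = 0.121), Notch3 (-0.53 ± 0.40, FDR = 0.453), Jag1 (-0.33 ± 0.49, FDR = 0.757) and Maml2 (0.24 ± 0.26, FDR = 0.636) did not pass, and Hey1 was not tested. Of the 36 genes of the wider list tested, 0 passed in edgeR, with a median of 0.01, and 0 in DESeq2 and 1 in limma, while 1 was positive and 4 were negative at an unadjusted p under 0.05. For Hey1 the fit without a filter gave -2.09 ± 0.62 (FDR = 0.0459). Of the markers tested, 3 of 7 for granulosa, 2 of 8 for theca and stroma and 1 of 2 for cumulus cells were called negative and 0 positive, and their part in the interactions of the members was not tested.

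For the members with a mean of at least 5 TPM, the genes with the most similar pattern were searched among 9888 genes, by the median absolute difference over the 54 libraries between log2(TPM + 1) values in units of each gene's own SD. Those nearest to Notch2 were Rhbdf2 (0.263 SD), Fdxr (0.272 SD) and Rusc2 (0.274 SD). Fdxr, a reductase that passes electrons to mitochondrial steroid-making enzymes, had medians of 15.9 and 20.4 TPM without hCG and 151 and 188 TPM post-hCG. Those nearest to Mamld1 were Sel1l (0.381 SD), Ppp4r1 (0.397 SD) and Dnajc16 (0.398 SD), and those nearest to Hes1 were Sec31a (0.391 SD), Plekhf2 (0.438 SD) and Akt2 (0.444 SD). The libraries share depth, groups and, as read from the column names, plate positions, so this is a description of likeness over these samples.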

How the data were processed

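Single sides of cultured mouse follicles were profiled by paired-end Smart-Seq2 RNA-seq. The authors aligned reads to GRCm38 with HISAT2 and corrected counts for batches with ComBat-seq. The counting program and the batches are not given in the sources used here, nor whether the deposited tables precede that correction. For every gene in each library the authors deposited an estimated count (72.2% of those above 0 were whole numbers) and a TPM value, corrected by them for transcript length and library size. Within a library, TPM values added up to between 585982 and 678417. All columns matched a sample, with 0 left over.

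The main test, run on rounded counts, was the two-sided quasi-likelihood test of edgeR 4.0.16 (R 4.3.3), after its expression filter (counts of at least 10, total of at least 15) and TMM scaling. Calls were made at 0.05 on the FDR, the Benjamini-Hochberg adjusted p over all genes tested. The 5 comparisons were those of the sides in each medium, of the media on each side, and the interaction. Levels, shares and likeness used TPM, and are descriptions. Alternatives were DESeq2 1.42.0, scaling by RLE or by library totals only, leaving out the filter or asking for a mean of at least 20 counts, all 4 groups in one fit, limma 3.58.1 on log2(TPM + 1) and log2(TPM + 0.1), with genes of a mean of at least 1 TPM, counts thinned to the smallest library, the replicate number as a block, and each member without its highest library. The fit without the 5 libraries with oocyte markers was added after the data had been seen. Scripts were tested on simulated data.

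The 10 members, the wider list and the marker lists were chosen with earlier results of these data known. All members were named. Of the wider list, at most 3 genes a comparison and direction were named, those with the largest log2FC past the FDR and a mean of at least 1 CPM in the higher group. Promoter windows come from RefSeq (GRCm38.p6) and gene positions from the GENCODE annotation of GRCm38. Other data of the study were not analysed here.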

Additional observations from a re-analysis of the deposited data

Results flagged for a closer look

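For 2 of the 10 genes the side difference changed with the medium by the test of the interaction itself in edgeR. For Mamld1 the log2FC between the sides was 1.13 without hCG (FDR = 3.08e-06) and -0.21 post-hCG (not called, FDR = 0.236), an interaction of -1.33 ± 0.20 (FDR = 1.25e-05). For Hey2 it was 1.63 and 0.70, an interaction of -0.93 ± 0.31 (FDR = 0.0485), and this call was lost with no filter (FDR = 0.0836), with thinned counts (FDR = 0.311), without its highest library (FDR = 0.0659) and without the 5 libraries with oocyte markers (FDR = 0.0978). Over all 10013 genes tested, the interaction was called for 426 in the positive and 466 in the negative direction, among them 3 of 7 granulosa markers tested, 2 of 8 of theca and stroma and 1 of 2 of cumulus cells, all negative. Their part was not tested.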

How the results depend on the processing

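Of 19 member calls, 14 kept their direction and their side of the FDR under every alternative that could be fitted, and 5 were lost under at least 1: the side differences of Notch2 in both media and of Hey2 post-hCG (limma), Notch1 for hCG on the ruptured side (limma and library totals) and the interaction of Hey2 (no filter, thinning, without its highest library, and without the 5 libraries with oocyte markers). Among the calls kept, Jag1 between the sides without hCG and Notch3 for hCG on the unruptured side had 8 alternatives, against up to 12 for others. Neither was fitted by limma, with a mean of at least 20 counts or with thinned counts, so these 2 calls were tried less widely. DESeq2, which tested all 10 members, called more than edgeR in every comparison. Between the sides it called 6 without hCG, with Hey1 added, and 5 post-hCG, with Jag1 and Notch3 added, against 5 and 3. For hCG it called 3 higher and 4 lower on the unruptured side and 2 and 4 on the ruptured side, with Jag1 and Hey1 added to those lower on each. It added Hey1 for the interaction. Limma on log2(TPM + 1) also called Hey1 higher on the putative ruptured side without hCG (FDR = 0.00295). For the interaction 1 member in place of 2 was called with thinned counts, without the 5 libraries and when each member was left without its highest library. Among called values the sign changed for Notch1 on the ruptured side, at -0.064 and -0.013 with limma at pseudocounts of 1 and 0.1. Among values not called, it changed for Notch1 between the sides post-hCG (-0.012, limma with 1) and for hCG on the unruptured side (-0.16 with library totals, -0.29 and -0.29 with limma, -0.10 without replicate 5 of the unruptured side post-hCG). It also changed for Maml2 (-0.11 between the sides post-hCG and -0.20 for hCG on the ruptured side with library totals, 0.013 and 0.037 for hCG on the unruptured side with limma), for the interaction of Notch2 (-0.062 with library totals, -0.24 and -0.29 with limma) and for that of Jag1 (0.051, thinned). The cause was not tested. Depth limits Hey1, Jag1 and Notch3, which were under the filter in most comparisons.

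The labels give groups the same replicate numbers, but most same-numbered libraries did not deviate together. In the comparisons other than the interaction, 3 of 14, 5 of 12, 1 of 12 and 4 of 13 pairs had a correlation of deviations over 0.1. The median correlations were -0.08, -0.037, 0.014 and 0.049, and the highest were 0.414, 0.252, 0.177 and 0.266. In the same order, 2, 2, 1 and 2 libraries correlated best with their own number. No label says that a number stands for a follicle, so pairing by follicle cannot be judged from this. With the replicate block the number of members called was the same in all 5 comparisons (5, 3, 5, 4 and 2), and the sign changed for Notch1 with hCG on the unruptured side (-0.062) and for the interaction of Notch2 (-0.0045), neither called.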
